A study of Chlorella sorokiniana with 6 samples.

Results

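The RNA processing class of the *Chlorella sorokiniana* transcriptome holds the transcripts filed by MapMan, a scheme that sorts plant genes into numbered classes called BINs, under RNA processing or one of its child BINs. It has 225 of the 18310 transcripts in the deposited count table. They fall into 87 general RNA processing transcripts, 43 for splicing, 39 for RNA helicases, 33 for ribonucleases, 20 for mRNA 3' end processing, 2 for Dicer and 1 for base modifications. RNA was sequenced from mixotrophic cultures of this unicellular green alga, moved at mid-log phase to 100 µmol photons of light with 2% glucose, and from normal cultures left at 10 µmol photons with no glucose named in the labels, 3 libraries per condition. Both conditions shared Bold's Basal Medium, a temperature of 27 °C and a growth time of 7 days. Light and glucose were changed together, so their effects cannot be told apart. The methods name a single strain, NIES-2168, whereas the labels give each of the 6 samples a strain number of its own, from NIES-2168 to NIES-2173. If these numbers were strains, strain and condition could not be told apart.

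In eukaryotes, a new messenger RNA is capped at its start, its introns are removed by the spliceosome, and its end is cut and given a poly(A) tail. The spliceosome is built from small nuclear ribonucleoproteins (snRNPs), in which small RNAs are held by rings of Sm or LSm proteins, and it is driven through its steps by RNA helicases, enzymes that use ATP to remodel RNA. Ribonucleases trim precursors and degrade RNA: the exosome works from the 3' end, XRN enzymes from the 5' end, and deadenylases remove the poly(A) tail. Roles below come from the Arabidopsis gene, or the protein family, to which each description in the table refers, and were not tested in this alga.

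Libraries held 3527337 to 4444858 counts (mixotrophic) and 2535461 to 3560221 counts (normal). The members took 1.56 to 1.60% of the counts in mixotrophic libraries and 1.40 to 1.60% in normal ones. Replicate 1 of the normal condition stood apart: its counts differed from those of normal replicates 2 and 3 with a chi-square of 51.0 and 53.7 per degree of freedom, about as far as from the mixotrophic libraries (48.1 to 52.0). Replicates 2 and 3 of 1 condition differed by little more than counting noise (1.21 for mixotrophic and 1.39 for normal), and mixotrophic replicate 1 differed from them by 1.54 and 1.68. Those chi-square values leave out 882 transcripts that were low in both libraries numbered 1 and higher in the other 4. Another measure, the root mean square log2 distance over tested transcripts, did not leave these out. By it, normal replicate 1 was nearest to mixotrophic replicate 1 (0.906) and further from normal replicates 2 and 3 (1.40 and 1.29). Over the tested members the same distances were 0.645, 0.785 and 0.713. By this measure mixotrophic replicate 1 also lay apart from mixotrophic replicates 2 and 3 (0.905 and 1.02). Whether the 882 transcripts or the change of measure made this difference was not tested. Of the 882 transcripts, 5 were members, all described as CAF1 deadenylases. Tests below therefore took replicates 2 and 3 of each condition, the libraries in the study's expression sheet, and where a described member lost its call over all 6 libraries, this is stated beside it. The methods describe independent repeats of the experiment without tying libraries to them, so p-values measure only the spread between these libraries, which may be technical. Unless stated otherwise, levels are CPM (counts scaled to an equal library size) in the order of replicates 1, 2 and 3, and fold changes are log2 values of mixotrophic over normal over the 4 libraries, with their standard errors. A transcript was called higher or lower at an adjusted p under 0.05.

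Over the 4 libraries, 171 of the 225 members had enough counts to be tested. Of these, 50 were higher and 36 lower under mixotrophic conditions, beside 28.6% higher and 29% lower among all 12389 transcripts tested. Thus the share of members that rose was near that of all transcripts, and the share that fell was below it. The median log2 fold change of the tested members was 0.09, beside -0.02 for all transcripts. Most calls were of modest size: 13 members were higher and 10 lower by at least 2-fold, beside 11.7% and 12% of all transcripts. Over all 6 libraries, 30 were higher and 21 lower of 172 tested, beside 13.3% and 15.2%, and with the replicate number as a block over 6 libraries 18 were higher and 10 lower, beside 9.97% and 10.5%. All 3 mixotrophic libraries lay on 1 side of all 3 normal libraries for 91 of the 171 members (53.2%), beside 48.5% of all transcripts tested. Another 40 members had no count in any library.

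Higher and lower calls were counted in each annotation class, to be read beside 28.6% higher and 29% lower among all transcripts tested over 4 libraries. Of 12 tested transcripts for 3' end processing, 7 were higher and 2 lower (median 0.39), and of 65 general transcripts 20 were higher and 10 lower (median 0.22). Splicing had 9 higher and 6 lower of 29 (31% and 20.7%, median 0.07). RNA helicases had 8 higher and 11 lower of 35 (22.9% and 31.4%, median -0.03). Ribonucleases had 6 and 6 of 28 (21.4% each, median -0.09), and Dicer 0 and 1 of 2. Shares of higher calls for general (30.8%) and splicing transcripts, and of lower calls for RNA helicases, were near those of all transcripts. The difference between classes was not tested. Over 6 libraries, 13.3% of all transcripts tested were higher and 15.2% lower. Higher and lower calls there were 2 and 1 of 12 for 3' end processing (16.7% and 8.33%), 12 and 6 of 65 for general, and 8 and 2 of 31 for splicing. They were 6 and 7 of 35 for RNA helicases, 2 and 4 of 27 for ribonucleases, and 0 and 1 of 2 for Dicer.

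**Figure D1:**
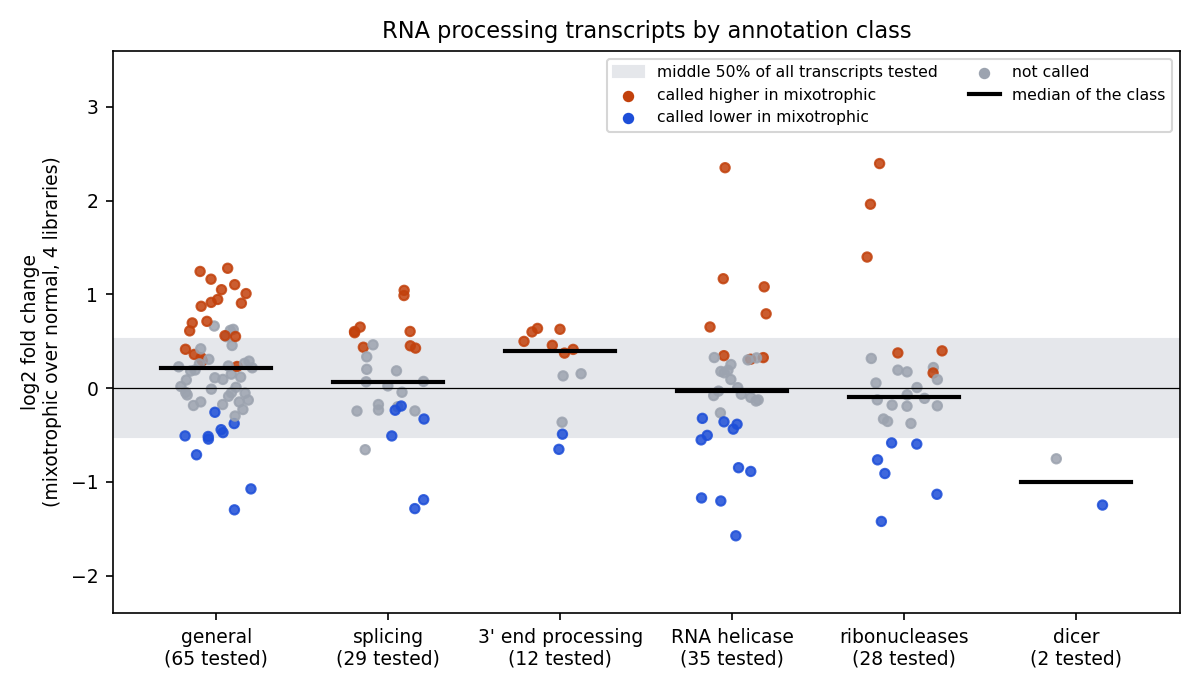
Log2 fold change of mixotrophic over normal (y axis, 4 libraries) of each tested RNA processing transcript, by annotation class (x axis). Orange points were called higher, blue points lower and grey points were not called, black bars are class medians, and the grey band spans the middle 50% of all transcripts tested; the bar of 3' end processing lies highest, at 0.39.

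Sm and LSm proteins, which form the rings around the small RNAs of the spliceosome and, for LSm1 to LSm7, a ring that binds mRNAs about to be decapped, had calls in 1 direction only. Of 9 tested, 4 were higher (44.4%) and 0 lower, beside 28.6% and 29% of all transcripts tested. The remaining 5 had log2 fold changes above 0 as well (group median 0.63). No member was lower at an unadjusted p under 0.05 either, and DESeq2 called 3 higher and 0 lower. Among all 12389 transcripts tested over 4 libraries, 3788 were higher and 3828 lower at an unadjusted p under 0.05. DESeq2 called 2489 higher and 2569 lower of 13940. Such counts in the role groups below are to be read beside these totals. LSm2 (g984) had 52.7, 55.9 and 56.5 CPM (mixotrophic), against 29.0, 27.6 and 22.3 CPM (normal), a log2 fold change of 1.16 ± 0.15 (adjusted p = 9.61e-08), so the lowest mixotrophic library lay well above the highest normal one. LSm7 (g17964) had 18.3, 17.7 and 17.7 CPM (mixotrophic), against 6.08, 8.35 and 7.88 CPM (normal), a log2 fold change of 1.10 ± 0.26 (adjusted p = 5.45e-04). SmE (g16462), a protein of the Sm ring, had 27.8, 26.6 and 30.3 CPM (mixotrophic), against 14.1, 14.2 and 16.1 CPM (normal), a log2 fold change of 0.87 ± 0.20 (adjusted p = 3.79e-04). LSm5 (g2181), known in Arabidopsis as SAD1 for its abscisic acid sensitivity, had 19.4, 20.7 and 18.5 CPM (mixotrophic), against 14.6, 11.3 and 9.53 CPM (normal), a log2 fold change of 0.91 ± 0.24 (adjusted p = 0.00186). In each of these, all 3 mixotrophic libraries lay above all 3 normal ones. Over 6 libraries these 4 stayed higher and the LSm4 transcript g1965 joined them (0.67, adjusted p = 0.0394), beside 13.3% higher among all transcripts tested. Over 4 libraries g1965 had 0.63 ± 0.28 (adjusted p = 0.0558). SmD2 (g7052) and LSm1 (g6651) were not called, with log2 fold changes of 0.12 ± 0.13 and 0.24 ± 0.16. Another 9 of the 18 Sm and LSm transcripts, among them 5 for SmD3 and those for SmD1, SmF, SmG and LSm6, had no count in any library. The SmD3 transcripts share a component, a group of transcripts assembled together, with predictions filed under other classes. All counts of that component lay on those (571, 551 and 552 CPM in mixotrophic, against 523, 566 and 525 CPM in normal libraries), so they are no measure of SmD3 alone.

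Transcripts of the U2 snRNP, which recognises the branch point of an intron, and of U2AF, which binds the stretch just before the 3' splice site and helps U2 to join, moved in different directions. Of 10 tested, 4 were higher and 3 lower (40% and 30%), beside 28.6% and 29% of all transcripts tested. The 4 higher ones belonged to the snRNP and the 3 lower ones were all U2AF65, the large subunit of U2AF. An SF3B3-like transcript (g14663), a subunit of the SF3b complex of U2, had 132, 142 and 129.5 CPM (mixotrophic), against 93.4, 61.4 and 68.0 CPM (normal), a log2 fold change of 1.04 ± 0.10 (adjusted p = 3.70e-10). A transcript of another component with the same description (g7088) had 226, 237 and 221 CPM (mixotrophic), against 178, 143 and 153 CPM (normal), a log2 fold change of 0.60 ± 0.08 (adjusted p = 8.62e-08). The SF3B4-like transcript g6455 had 59.1, 68.4 and 78.9 CPM (mixotrophic), against 44.2, 31.3 and 40.7 CPM (normal), a log2 fold change of 0.99 ± 0.13 (adjusted p = 2.56e-07). U2A' (g8310) had 47.7, 48.7 and 41.9 CPM (mixotrophic), against 33.4, 29.6 and 25.9 CPM (normal), a log2 fold change of 0.70 ± 0.16 (adjusted p = 3.27e-04). In all 4 the conditions did not overlap, with normal replicate 1 nearest to the mixotrophic libraries. SF3B1 (g1085), the largest SF3b subunit, was not called, with 527, 499.8 and 522 CPM (mixotrophic), against 555, 509 and 480.2 CPM (normal) (log2 fold change 0.02 ± 0.06).

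U2AF65 fell in all 3 of its transcripts. The transcript g11847 had 64.1, 58.6 and 64.6 CPM (mixotrophic), against 129.9, 139.9 and 137 CPM (normal), a log2 fold change of -1.19 ± 0.10 (adjusted p = 8.34e-12). Its partner g11846, from the same assembled component, had 42.3, 38.2 and 38.8 CPM (mixotrophic), against 106, 93.1 and 91.6 CPM (normal), a log2 fold change of -1.28 ± 0.12 (adjusted p = 9.18e-11). Each mixotrophic library thus lay far below each normal library for both. Reads may be split between them, because transcripts of 1 component share sequence. The third, g15680, had 131, 140.1 and 134 CPM (mixotrophic), against 149.8, 177 and 207 CPM (normal), a log2 fold change of -0.51 ± 0.08 (adjusted p = 4.31e-06), with a smaller gap and normal replicate 1 again closest to the mixotrophic libraries. Over 6 libraries the first pair kept its calls (g11847 -1.12, adjusted p = 0.00158; g11846 -1.28, adjusted p = 0.00158) and g15680 did not (-0.40, adjusted p = 0.0861).

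Other parts of the spliceosome changed in a few members. U1-70K (g12315), a protein of the U1 snRNP that recognises the 5' splice site, had 60.0, 60.3 and 56.2 CPM (mixotrophic), against 39.5, 35.9 and 37.1 CPM (normal), a log2 fold change of 0.65 ± 0.13 (adjusted p = 1.14e-04). PRP19 (g9049), a ubiquitin ligase whose complex stabilises the active spliceosome, had 269, 261 and 265 CPM (mixotrophic), against 175, 182 and 161 CPM (normal), a log2 fold change of 0.61 ± 0.07 (adjusted p = 3.80e-08). In both, replicate 1 lay with its own condition, and both calls held over 6 libraries (adjusted p = 0.00826 for U1-70K and 0.00685 for PRP19). PRP4 (g4738), a WD40 protein of the U4/U6 snRNP, had 41.7, 44.3 and 49.2 CPM (mixotrophic), against 19.1, 26.7 and 18.4 CPM (normal), a log2 fold change of 1.05 ± 0.17 (adjusted p = 3.86e-06). Summed with the other transcript of its component, however, its log2 fold change was 0.22 (adjusted p = 0.053), so that call depends on how reads were shared out. PRP8 (g2796), the large scaffold protein at the catalytic centre, was lower by a small amount, with 548, 555 and 554 CPM (mixotrophic), against 565, 676 and 610.3 CPM (normal), a log2 fold change of -0.23 ± 0.06 (adjusted p = 8.39e-04). Over 6 libraries it was not called (-0.16, adjusted p = 0.259). PRP18 (g2558), which acts in the second step of splicing, was lower (log2 fold change -0.33 ± 0.09, adjusted p = 0.00175). PRP17-like g12105 was higher (log2 fold change 0.23 ± 0.07, adjusted p = 0.00688), and both were called over 4 libraries only.

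Among all transcripts tested, 28.6% were higher and 29% lower. Of 12 SR proteins, other proteins with RNA recognition motifs and splicing factors with a PWI domain, 3 were higher and 1 lower (25% and 8.33%, median -0.02). The lower one, RBP47 (g5087), an RNA-binding protein that in plants is found in stress granules, had 260.3, 240.3 and 248 CPM (mixotrophic), against 284, 374 and 328 CPM (normal), a log2 fold change of -0.54 ± 0.07 (adjusted p = 6.94e-08). Over 6 libraries it was not called (-0.40, adjusted p = 0.0622). RS31 (g4256), a plant SR protein, was higher (log2 fold change 0.59 ± 0.12, adjusted p = 1.22e-04), with 78.6, 81.5 and 72.5 CPM (mixotrophic), against 73.8, 46.3 and 53.9 CPM (normal). Normal replicate 1 lay above mixotrophic replicate 3, so the conditions overlapped, and over 6 libraries it was not called (0.42, adjusted p = 0.157). The 4 tested transcripts of PTB, a regulator of alternative splicing, ran between -0.23 ± 0.28 and 0.09 ± 0.13 and none was called.

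**Figure D2:**
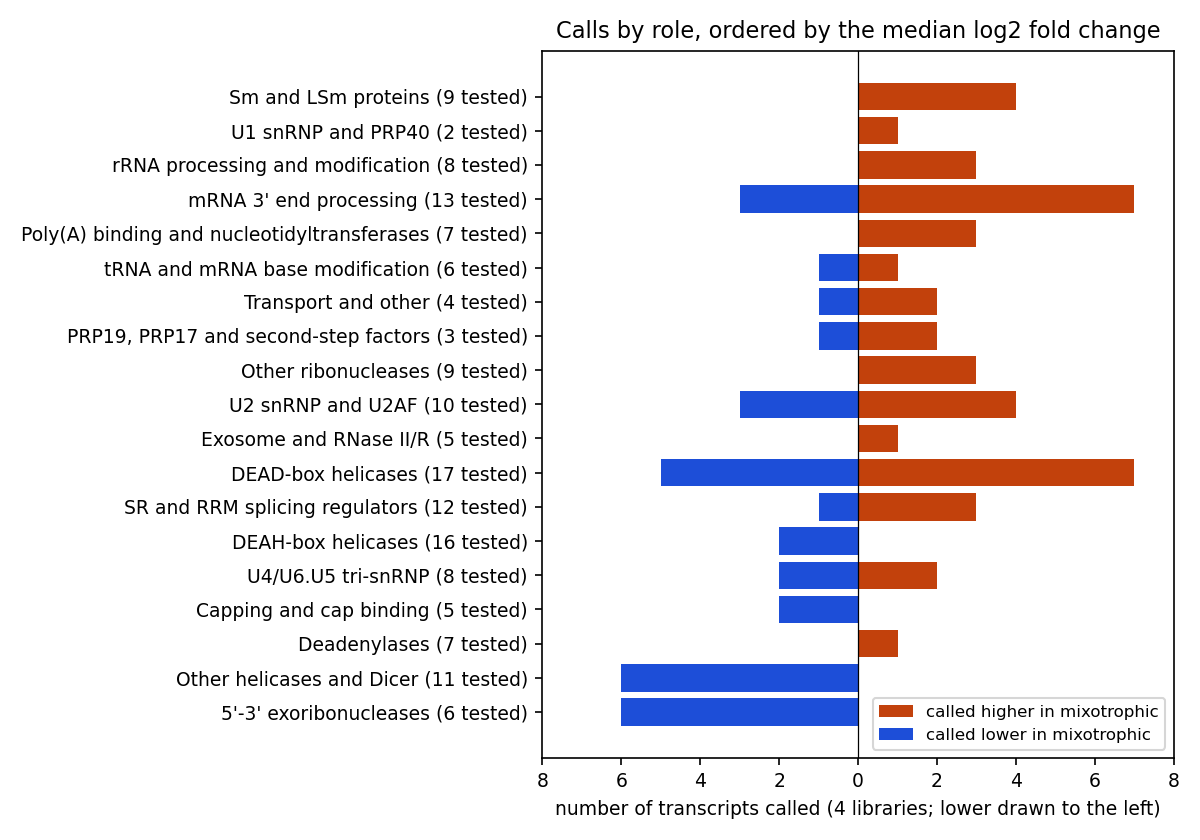
Number of transcripts called over 4 libraries (x axis) in each role group (y axis), with those higher under mixotrophic conditions in orange to the right and those lower in blue to the left, ordered by the group's median log2 fold change. Sm and LSm proteins are at the top with 4 higher and 0 lower of 9 tested, and 5'-3' exoribonucleases at the bottom with 0 higher and 6 lower of 6.

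DEAD-box helicases are named after a run of amino acids in their ATP-binding site. They had calls in both directions: 7 of 17 were higher and 5 lower (41.2% and 29.4%), beside 28.6% and 29% of all transcripts. The transcript of an RH3-like helicase (g2520), in Arabidopsis a chloroplast enzyme needed for intron splicing and ribosome assembly, had 940.5, 955 and 984 CPM (mixotrophic), against 624, 451 and 451 CPM (normal), a log2 fold change of 1.08 ± 0.05 (adjusted p = 1.09e-16). All 3 mixotrophic libraries lay above all normal ones, and normal replicate 1 lay between normal replicates 2 and 3 and the mixotrophic level. A pair of transcripts described as PRH75, a nucleolar helicase, rose as well. For g14625 the levels were 118, 128 and 121 CPM (mixotrophic), against 81.3, 47.6 and 60.1 CPM (normal), a log2 fold change of 1.17 ± 0.11 (adjusted p = 2.13e-10). For g8777 they were 217, 211 and 201 CPM (mixotrophic), against 164, 114 and 119.6 CPM (normal), a log2 fold change of 0.79 ± 0.08 (adjusted p = 9.57e-10). Smaller rises were measured in the DED1-type transcripts g11314 and g11316 (0.31 ± 0.06 and 0.35 ± 0.06), whose family unwinds mRNA leaders during translation initiation.

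The 5 lower DEAD-box transcripts had descriptions of spliceosomal helicases, PRP5 type (which acts as U2 joins the intron) or PRP28 type (which releases U1). PRP5-type g2517 had 66.5, 64.8 and 57.3 CPM (mixotrophic), against 193, 175 and 184 CPM (normal), a log2 fold change of -1.57 ± 0.09 (adjusted p = 9.18e-15), the lowest fold change of any tested member. From a related component, g2514 had 95.0, 106 and 99.5 CPM (mixotrophic), against 287, 236 and 232 CPM (normal), a log2 fold change of -1.20 ± 0.08 (adjusted p = 8.98e-14). Next to it, g2516 had 109, 111 and 108 CPM (mixotrophic), against 287, 233 and 252 CPM (normal), a log2 fold change of -1.17 ± 0.08 (adjusted p = 1.22e-13). For all 3, every mixotrophic library lay far below every normal one, and they kept their calls over 6 libraries (adjusted p = 8.90e-04, 0.00188 and 0.00169) and with the replicate block over 6 libraries (adjusted p = 0.00865, 0.0127 and 0.0126). These transcripts may share reads. Of the PRP28-type transcripts, g2521 had 88.1, 91.8 and 88.2 CPM (mixotrophic), against 129, 122 and 111 CPM (normal), a log2 fold change of -0.38 ± 0.09 (adjusted p = 8.17e-04). The other, g8237, had 49.4, 42.3 and 46.6 CPM (mixotrophic), against 44.2, 73.9 and 87.0 CPM (normal), a log2 fold change of -0.89 ± 0.12 (adjusted p = 2.55e-07). In g8237, normal replicate 1 lay at the mixotrophic level. The call was lost over 6 libraries (-0.57, adjusted p = 0.156).

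DEAH-box helicases, the motors of later splicing steps and of spliceosome release, had few calls. Of 16, 0 were higher and 2 lower (12.5%), with a median of -0.07, beside 28.6% higher and 29% lower of all transcripts. None was higher at an unadjusted p under 0.05, nor by DESeq2, which called 2 lower. The PRP2-type transcript g8374, whose yeast relative activates the spliceosome before the first step, had 227, 229.7 and 223 CPM (mixotrophic), against 446, 425 and 380.0 CPM (normal), a log2 fold change of -0.85 ± 0.07 (adjusted p = 7.14e-12), so that the conditions were clearly apart in all libraries. A PRP22-type transcript of the same component (g8370) was lower by 0.38 ± 0.08 on the log2 scale (adjusted p = 2.93e-04), whereas a second one (g8371) had -0.07 ± 0.09 and was not called. PRP43-type g8373, of the helicase that takes spent spliceosomes apart, had 254, 264 and 257 CPM (mixotrophic), against 320.0, 276 and 262 CPM (normal) (-0.06 ± 0.07, not called).

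The remaining helicases and the Dicer-like enzymes had 0 higher and 6 lower of 11 (median -0.36), beside 28.6% and 29% of all transcripts. None was higher at an unadjusted p under 0.05, nor by DESeq2, which called 4 lower. SDE3, a helicase of RNA silencing in Arabidopsis, was lower in both of its transcripts: g4081 had 63.7, 66.2 and 62.1 CPM (mixotrophic), against 114, 95.6 and 90.3 CPM (normal), a log2 fold change of -0.55 ± 0.11 (adjusted p = 4.88e-05). Its partner g4082 had 84.0, 72.6 and 79.5 CPM (mixotrophic), against 146, 104 and 107 CPM (normal), a log2 fold change of -0.50 ± 0.10 (adjusted p = 5.60e-05). The Dicer-like transcript g14548, of the family that cuts double-stranded RNA into small RNAs, had 4.32, 5.17 and 3.09 CPM (mixotrophic), against 9.40, 7.10 and 12.2 CPM (normal), a log2 fold change of -1.25 ± 0.37 (adjusted p = 0.00493). Its counts were low, at 11 to 21 in mixotrophic and 17 to 37 in normal libraries, and the call was lost without mixotrophic replicate 3 (-0.92, adjusted p = 0.068), without normal replicate 3 (-0.77, adjusted p = 0.217) and with DESeq2 (-1.24, adjusted p = 0.102). The other Dicer-like transcript (g3900) had 5.61, 4.92 and 5.06 CPM (mixotrophic), against 16.6, 9.60 and 7.23 CPM (normal), a log2 fold change of -0.75 ± 0.35 (adjusted p = 0.0666) and was not called. UPF1, the helicase of nonsense-mediated decay, was lower in g16202 (log2 fold change -0.36 ± 0.10, adjusted p = 0.00273) but was not called in g14805 and g1885 (0.19 ± 0.20 and 0.30 ± 0.23). Over 6 libraries g16202 was not called either (-0.39, adjusted p = 0.0899). A SEN1-like helicase described as MAA3 (g6136) had 258, 264 and 269 CPM (mixotrophic), against 196, 341 and 368 CPM (normal), a log2 fold change of -0.44 ± 0.06 (adjusted p = 9.00e-07). Normal replicate 1 was here below every mixotrophic library, and over 6 libraries it was not called (-0.19, adjusted p = 0.616).

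The highest fold change among members with a mean log2 CPM of at least 3 was that of RPA70B (g5912), filed with the RNA helicases but described as a subunit of replication protein A, which coats single-stranded DNA. It had 248, 269 and 246 CPM (mixotrophic), against 163, 46.8 and 52.2 CPM (normal), a log2 fold change of 2.35 ± 0.09 (adjusted p = 1.15e-18). Every mixotrophic library was above every normal one, but normal replicate 1 stood about 3-fold above its partners. Over 6 libraries the log2 fold change was 1.54, adjusted p = 0.0673, that is, not called, and with the replicate block 1.79 (adjusted p = 0.0418).

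**Figure D3:**
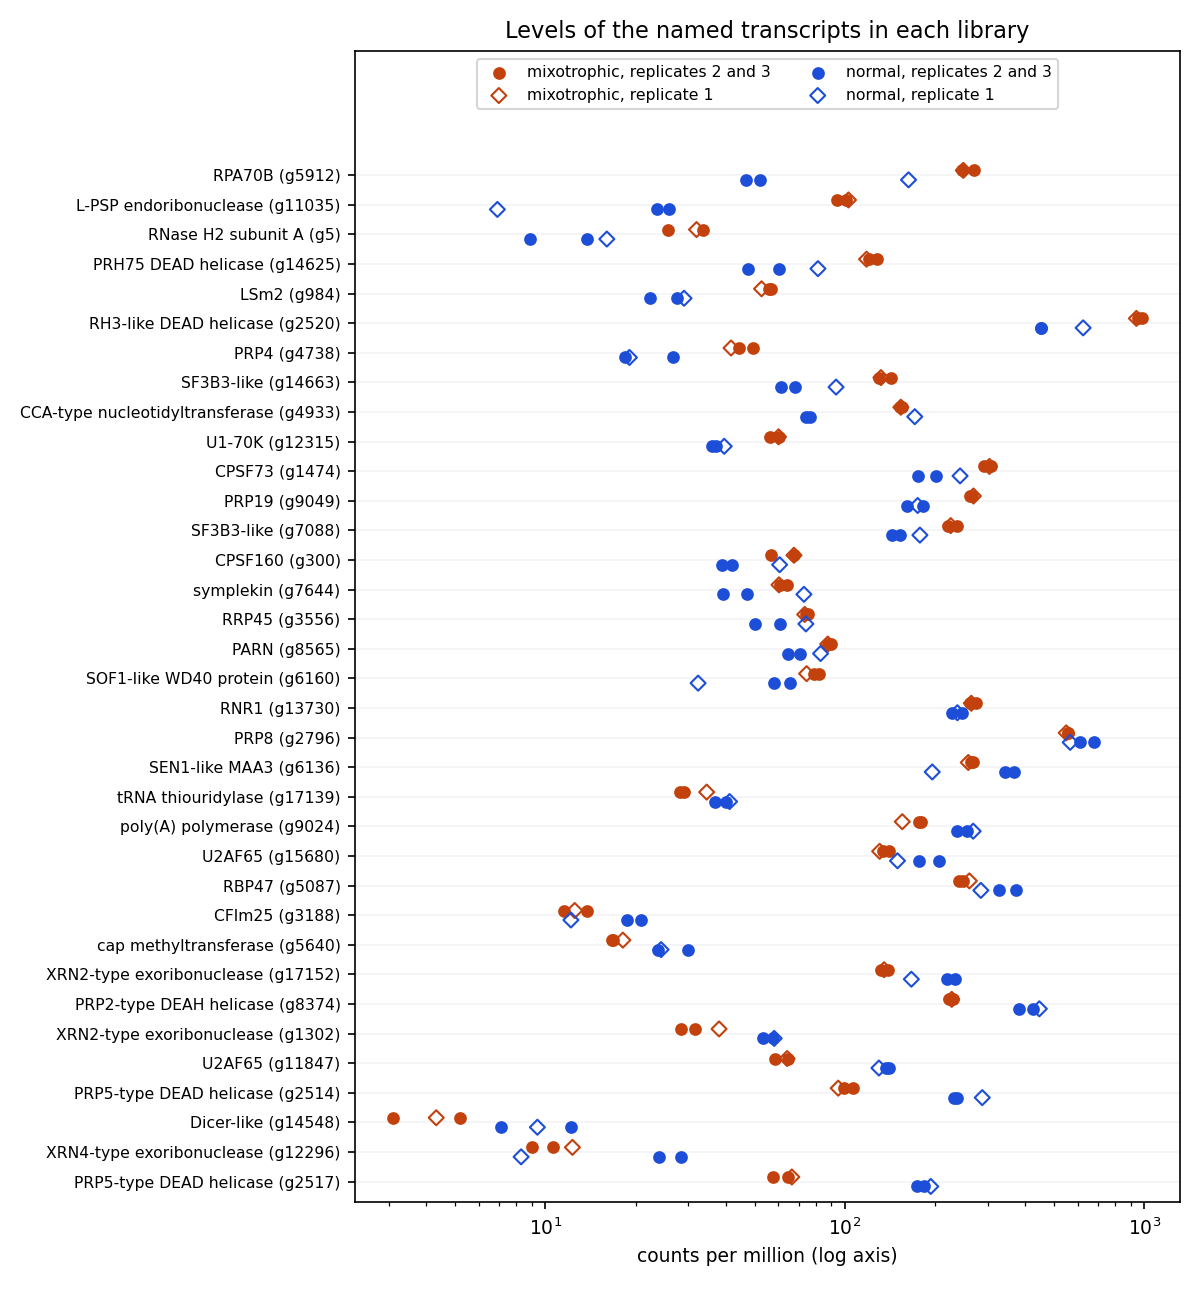
CPM (x axis, log scale) of each named transcript with a description (y axis, highest log2 fold change at the top) in the mixotrophic (orange) and normal (blue) libraries. Circles are replicates 2 and 3 and open diamonds replicate 1; the open blue diamonds lie away from the blue circles in several rows, as for RPA70B at 163 CPM and SEN1-like MAA3 at 196 CPM.

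At the 3' end of mRNAs, the cleavage and polyadenylation specificity factor (CPSF) finds the poly(A) signal, its subunit CPSF73 cuts the RNA, symplekin holds the machinery together and poly(A) polymerase adds the tail. CPSF73 was higher in both of its transcripts, which come from the same component and may share reads. In g1474 the levels were 304, 308 and 290.5 CPM (mixotrophic), against 242, 176 and 202 CPM (normal), a log2 fold change of 0.64 ± 0.07 (adjusted p = 1.66e-08). In g1475 they were 172, 179 and 186 CPM (mixotrophic), against 149.5, 109 and 122 CPM (normal), a log2 fold change of 0.63 ± 0.08 (adjusted p = 1.16e-07). CPSF160 (g300), which helps to bind the signal, had 67.6, 67.7 and 56.8 CPM (mixotrophic), against 60.5, 38.8 and 42.0 CPM (normal), a log2 fold change of 0.60 ± 0.13 (adjusted p = 3.44e-04). Symplekin (g7644) had 60.2, 60.8 and 64.1 CPM (mixotrophic), against 73.0, 39.2 and 47.0 CPM (normal), a log2 fold change of 0.50 ± 0.13 (adjusted p = 0.00133). For CPSF160 and symplekin g7644 normal replicate 1 lay within or above the mixotrophic range. Neither was called over 6 libraries (CPSF160 0.44, adjusted p = 0.156, and g7644 0.21, adjusted p = 0.570). A symplekin transcript of the same component as g7644, g7643, was also higher (0.46 ± 0.14, adjusted p = 0.00586), but was not called over 6 libraries (0.15, adjusted p = 0.783).

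Clp1 (g12106) and the WD40 protein Pfs2 (g13904) were also higher over 4 libraries (0.41 ± 0.11 and 0.37 ± 0.11). Neither was called over 6 libraries (adjusted p = 0.183 and 0.142). Poly(A) polymerase (g9024) fell, with 155, 179 and 176 CPM (mixotrophic), against 268, 255 and 237 CPM (normal), a log2 fold change of -0.49 ± 0.07 (adjusted p = 9.23e-07), and kept its call over 6 libraries (-0.58, adjusted p = 0.0129). CFIm25 (g3188), which binds upstream of the cleavage site, was lower (log2 fold change -0.65 ± 0.23, adjusted p = 0.0154) at 41 to 56 counts in mixotrophic and 50 to 57 counts in normal libraries of the fit. Its call was lost without mixotrophic replicate 3 (adjusted p = 0.127), without normal replicate 2 (adjusted p = 0.0569) and over 6 libraries (adjusted p = 0.227). The summed level of the 3' end class was 1136, 1178 and 1177 CPM in mixotrophic libraries, against 1193, 947 and 981 CPM in normal ones, so that normal replicate 1 was above all mixotrophic libraries. With the replicate block over 6 libraries, edgeR called 0 of the 12 in either direction (2 higher and 1 lower at an unadjusted p under 0.05), and DESeq2 over 4 libraries called 4 higher and 1 lower. CstF77 (5 transcripts), CstF64 and CPSF30 (2) had no count in any library. The components that hold CstF77 and CPSF30 did have counts, all on predictions filed outside RNA processing. These summed to 40.4, 40.1 and 40.2 CPM (mixotrophic), against 30.1, 19.2 and 17.7 CPM (normal), in the CstF77 component. In the CPSF30 component they summed to 28.3, 26.3 and 27.0 CPM (mixotrophic), against 39.5, 79.3 and 76.9 CPM (normal). These sums were not tested and are no measure of either subunit alone.

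At the 5' end, capping and cap binding had 0 higher and 2 lower of 5 (40%), beside 28.6% and 29% of all transcripts. Both lower ones were transcripts of a cap methyltransferase, which completes the cap, and came from the same component. The transcript g5640 had 18.1, 16.7 and 16.9 CPM (mixotrophic), against 24.3, 23.8 and 29.9 CPM (normal), a log2 fold change of -0.71 ± 0.20 (adjusted p = 0.00270). The partner g5639 of the same component had 15.1, 14.5 and 15.7 CPM (mixotrophic), against 22.9, 22.5 and 20.04 CPM (normal), a log2 fold change of -0.51 ± 0.21 (adjusted p = 0.0410). The conditions did not overlap in either, and both were called over 6 libraries, whereas DESeq2 called neither, and g5640 was not called without normal replicate 3 (-0.52, adjusted p = 0.0753). The transcript g5639 was also not called with the replicate block over 4 libraries (adjusted p = 0.0731). The capping enzyme and CBP20, a cap-binding protein, were not called.

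All 6 tested 5'-3' exoribonucleases, the XRN family that degrades RNA from an exposed 5' end, were lower (median -0.84), beside 29% of all transcripts. Of these enzymes 0 were higher, also at an unadjusted p under 0.05 and by DESeq2, which called 5 lower of 7, beside 2569 lower of 13940 for all transcripts. They came from 4 assembled components. XRN2-type g17152 had 135, 139 and 131 CPM (mixotrophic), against 167, 219 and 233 CPM (normal), a log2 fold change of -0.76 ± 0.08 (adjusted p = 7.78e-10). Likewise, g1302 had 38.0, 31.5 and 28.4 CPM (mixotrophic), against 58.0, 53.4 and 57.5 CPM (normal), a log2 fold change of -0.91 ± 0.14 (adjusted p = 2.10e-06). The pair g10903 and g10905 had log2 fold changes of -0.60 ± 0.13 and -0.58 ± 0.13. In these 4 transcripts the conditions did not overlap in 6 libraries, as in 48.5% of all transcripts tested. XRN4-type g12296, of the cytoplasmic enzyme in Arabidopsis, had 12.3, 10.6 and 8.99 CPM (mixotrophic), against 8.29, 28.4 and 24.0 CPM (normal), a log2 fold change of -1.42 ± 0.23 (adjusted p = 3.51e-06). Its normal replicate 1 was the lowest of all 6 libraries, and the call was lost over 6 libraries (-0.91, adjusted p = 0.191), as was that of its partner g12297 (-0.86, adjusted p = 0.125). Over 6 libraries 4 of 7 were lower, beside 15.2% of all transcripts tested. With the replicate block 1 was lower, g1302 (adjusted p = 0.0343), beside 10.5% of all transcripts tested.

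Other ribonucleases had 3 higher and 0 lower of 9 (median 0.19), beside 28.6% and 29% of all transcripts. Only 1 was lower at an unadjusted p under 0.05, and DESeq2 called 3 higher and 0 lower. An L-PSP endoribonuclease (g11035), of a family also known as reactive intermediate deaminases, had 103, 101 and 94.4 CPM (mixotrophic), against 6.91, 25.9 and 23.7 CPM (normal), a log2 fold change of 1.96 ± 0.13 (adjusted p = 1.46e-13). Every mixotrophic library was above 90 CPM and every normal one below 30 CPM, and normal replicate 1 was the lowest. Over 6 libraries the fold change was 2.41, adjusted p = 0.0140. RNase H2 subunit A (g5), of an enzyme that removes RNA from RNA:DNA hybrids, had 31.9, 33.5 and 25.6 CPM (mixotrophic), against 16.03, 13.8 and 8.87 CPM (normal), a log2 fold change of 1.40 ± 0.23 (adjusted p = 6.66e-06). An RNase HII transcript (g16452) had only 22, 26 and 20 counts in mixotrophic libraries, against 9, 0 and 6 counts in normal ones (log2 fold change 2.40 ± 0.59, adjusted p = 9.87e-04), and was not called over 6 libraries (adjusted p = 0.153).

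The exosome and RNase II/R group had 1 higher (20%) and 0 lower of 5, beside 28.6% and 29% of all transcripts. The higher one was RRP45 (g3556), a subunit of the exosome ring, with 73.4, 75.3 and 74.2 CPM (mixotrophic), against 74.1, 50.1 and 60.8 CPM (normal), a log2 fold change of 0.40 ± 0.12 (adjusted p = 0.00466). None of the group was lower at an unadjusted p under 0.05, and DESeq2 called none. Of 7 deadenylases, 1 was higher (14.3%) and 0 lower, beside the same shares of all transcripts. It was PARN (g8565), with 87.6, 90.1 and 87.9 CPM (mixotrophic), against 82.9, 71.0 and 64.7 CPM (normal), a log2 fold change of 0.38 ± 0.11 (adjusted p = 0.00302). Again none was lower at an unadjusted p under 0.05, and DESeq2 called none. The 5 CAF1 transcripts low in replicate 1 of both conditions had at most 0.648 CPM in mixotrophic replicate 1 and 0.829 CPM in normal replicate 1, and none was called. RRP45 and PARN were not called over 6 libraries (adjusted p = 0.268 and 0.145), nor was RRP45 (g3556) without normal replicate 2 (0.25, adjusted p = 0.0913). The chloroplast exoribonuclease RNR1 (g13730) was just inside the threshold (log2 fold change 0.16 ± 0.07, adjusted p = 0.0480). That call was lost with the replicate block (adjusted p = 0.0591), without mixotrophic replicate 2 (0.11, adjusted p = 0.349), without normal replicate 3 (0.11, adjusted p = 0.242) and when its component was summed (0.01, adjusted p = 0.908). Over 6 libraries it was not called either (0.17, adjusted p = 0.202).

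Among poly(A)-binding proteins and nucleotidyltransferases, 3 of 7 were higher and 0 lower, beside 28.6% and 29% of all transcripts. Of these 7, 5 were higher and 0 lower at an unadjusted p under 0.05, and 3 and 0 by DESeq2. A CCA-type nucleotidyltransferase (g4933), of the family that adds the CCA end to tRNAs, had 154, 155 and 152 CPM (mixotrophic), against 171, 73.9 and 76.2 CPM (normal), a log2 fold change of 1.01 ± 0.09 (adjusted p = 8.31e-11). Mixotrophic libraries and normal replicates 2 and 3 were about 2-fold apart, but normal replicate 1 exceeded all mixotrophic libraries, and the call was lost over 6 libraries (0.52, adjusted p = 0.319). Poly(A)-binding protein, which coats the tail, was higher in both of its transcripts (0.33 ± 0.06 in g4422 and 0.29 ± 0.06 in g4424), again over 4 libraries only.

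Processing and modification of ribosomal RNA had 3 higher and 0 lower of 8, beside 28.6% and 29% of all transcripts. This group had 4 and 0 at an unadjusted p under 0.05, and DESeq2 called none. The SOF1-like WD40 protein (g6160), in yeast part of the machinery that cuts the precursor of the small subunit, had 74.5, 78.8 and 81.8 CPM (mixotrophic), against 32.3, 65.6 and 58.1 CPM (normal), a log2 fold change of 0.36 ± 0.11 (adjusted p = 0.00622). Its lowest library was normal replicate 1, and it was not called over 6 libraries (0.59, adjusted p = 0.147) or without normal replicate 3 (0.28, adjusted p = 0.0787). Base modification of tRNA and mRNA had 1 higher and 1 lower of 6 (16.7% each, median 0.29), beside 28.6% and 29% of all transcripts. The higher one, a tRNA isopentenyltransferase (g3283), had a log2 fold change of 0.56 ± 0.23 (adjusted p = 0.0351). It was not called over 6 libraries (0.37, adjusted p = 0.224). The lower one was a tRNA thiouridylase (g17139), which modifies tRNA bases that read codons. It had 34.5, 29.1 and 28.1 CPM (mixotrophic), against 41.2, 40.1 and 36.8 CPM (normal), a log2 fold change of -0.44 ± 0.15 (adjusted p = 0.0155). That call was lost without mixotrophic replicate 3 (adjusted p = 0.0805) and over 6 libraries (adjusted p = 0.0905). HASTY (g13898), an exportin that in Arabidopsis acts in the miRNA pathway, was lower by a small amount (log2 fold change -0.26 ± 0.06, adjusted p = 0.00113) and was not called over 6 libraries (-0.27, adjusted p = 0.0614).

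Of 16 members without a usable description, 12 were tested. Of these, 5 were higher and 3 lower (41.7% and 25%), beside 28.6% and 29% of all transcripts. All 8 were called over 6 libraries in the same direction, where 13.3% of all transcripts tested were higher and 15.2% lower. The largest rises were in 2 components. In g417 the levels were 126, 123 and 115 CPM (mixotrophic), against 55.3, 45.9 and 52.6 CPM (normal), a log2 fold change of 1.25 ± 0.11 (adjusted p = 4.88e-11). In g418 of the same component they were 31.1, 28.8 and 22.8 CPM (mixotrophic), against 7.46, 11.7 and 9.53 CPM (normal), a log2 fold change of 1.28 ± 0.23 (adjusted p = 2.25e-05). In g1873 they were 287, 268 and 261 CPM (mixotrophic), against 153, 142 and 129.7 CPM (normal), a log2 fold change of 0.95 ± 0.08 (adjusted p = 7.40e-12), with nearly the same values in g1874 (0.92 ± 0.08). The transcript g2283 fell, with 136, 141 and 135 CPM (mixotrophic), against 213, 340.3 and 328 CPM (normal), a log2 fold change of -1.30 ± 0.07 (adjusted p = 1.41e-15). So did g3772, with 159.9, 135 and 142 CPM (mixotrophic), against 218, 291 and 283 CPM (normal), a log2 fold change of -1.07 ± 0.07 (adjusted p = 1.15e-13). For the rising transcripts normal replicate 1 lay with the other normal libraries, and for g2283 and g3772 it lay between them and the mixotrophic libraries.

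Including replicate 1 changed how many members were called, but not their direction where they were called. The 6 libraries include the 4 of the main test, so a shared direction is partly built in. Replicate 1 was not compared on its own. Of the 86 members called over 4 libraries, 50 (29 higher and 21 lower) were called in the same direction over 6 and 0 in the opposite one, and 1 was called over 6 only among 169 tested in both. Of the members tested in both fits, 15 had log2 fold changes of opposite sign, none of them called over 4 libraries. The spread was wider with replicate 1: the common coefficient of variation between libraries of a condition was 4.64% over 4 libraries and 35.5% over 6. Without normal replicate 1 alone, 80 of the 86 were called; without mixotrophic replicate 1 alone, 18 were. In all, 24 of the 39 named transcripts were called over 6 libraries.

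**Figure D4:**
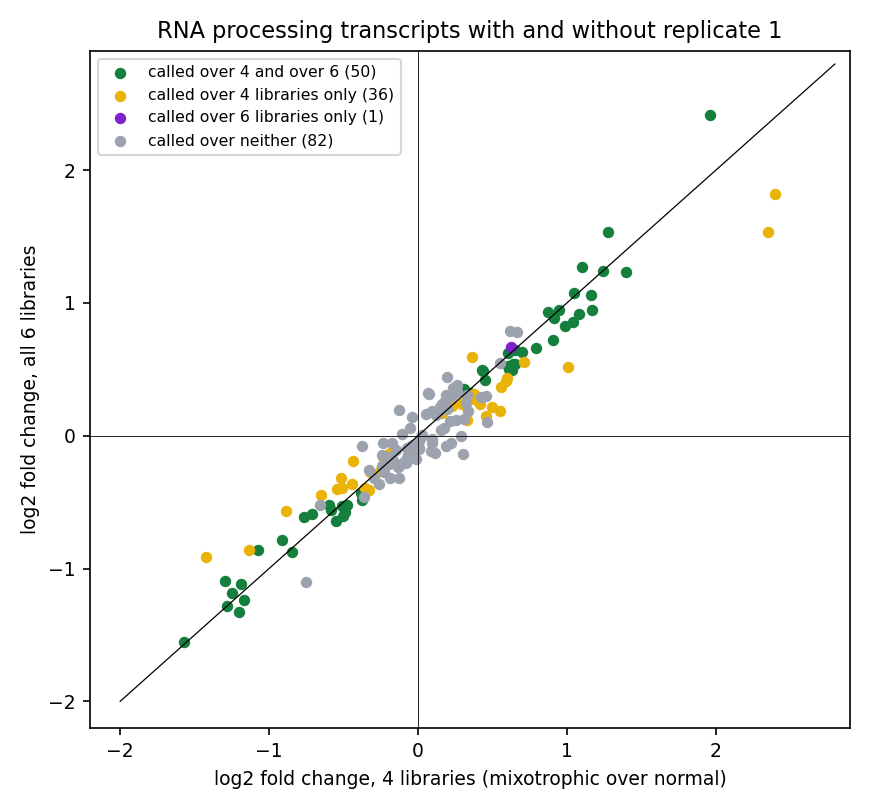
Log2 fold change of mixotrophic over normal over all 6 libraries (y axis) against that over the 4 libraries of replicates 2 and 3 (x axis) for the 169 RNA processing transcripts tested in both; the line marks equal values. The 50 green points were called in both, the 36 yellow points over 4 libraries only, and none of the green or yellow points lies in a quadrant of opposite signs.

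Other classes of RNA metabolism gave different counts over the 4 libraries, where 28.6% of all transcripts tested were higher and 29% lower. RNA-binding transcripts had 20 higher and 14 lower of 55 tested (median 0.04), whereas transcription had 6 higher and 19 lower of 47 (median -0.15). Ribosome biogenesis, which includes many rRNA processing factors, had 23 higher and 11 lower of 93 (median 0.13). Over 6 libraries they had 8 and 12 of 55, 3 and 7 of 48, and 15 and 5 of 92, beside 13.3% and 15.2% of all transcripts. RNA processing had relatively more higher than lower calls than transcription in both fits, but the difference between the classes was not tested.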

How the data were processed

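Per the study's methods, the authors pooled the reads of all samples, assembled them with Trinity 2.0.6, predicted coding transcripts with AUGUSTUS 2.5.5, aligned paired reads with Subread and counted them with featureCounts at default settings. The labels name BWA and DESeq2, no version stated. The deposited count table holds raw counts per transcript, unscaled. Counting at default settings does not use strand, although the kit marks it, so overlapping transcripts on opposite strands cannot be told apart. Tables of the authors' own comparisons (fold changes, p-values and enrichment) were not used. In the copy used here 711 descriptions are removed, 20 of them of members.

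Counts were tested in R 4.3.3 with edgeR version 4.0.16 (scaling by TMM, a filterByExpr minimum count of 10, two-sided glmQLFTest, Benjamini-Hochberg over all transcripts tested), over 2 libraries per condition, without a block. The standard error was taken as log2 fold change over the square root of F. The same test over 6 libraries, DESeq2 1.42.0 and the other alternatives are given in the closing section. Scripts were tested on simulated data. Levels are CPM on the TMM-scaled total. Libraries held 2535461 to 4444858 counts.

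Same-numbered libraries deviated together (correlations of deviations across transcripts 0.70, 0.63 and 0.54 for replicates 1, 2 and 3). Without the 882 transcripts low in replicate 1 of both conditions (CPM plus 0.5 at least 2-fold lower than in each other library, all at 1 CPM or more), they were 0.12, 0.05 and 0.03. Deviations were taken from the mean of the 3 libraries of a condition. A deviation shared by both libraries numbered 1 thus also makes the others correlate, so these values cannot show that the numbers are pairs. Differently numbered libraries also correlated: mixotrophic 3 with normal 2 at 0.68 and mixotrophic 2 with normal 3 at 0.51 (0.11 and 0.04 without those transcripts), and those of replicate 1 with 2 or 3 at -0.72 to -0.58. Nothing in the labels says which libraries share a culture. The main test took no block, because the study's methods name no covariate. With the replicate number as a block, 82 of the 86 calls were kept over 4 libraries. Over 6 libraries 28 were kept with the block and 50 without it.

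Named transcripts were, per class with at least 10 tested, the 3 higher and 3 lower with the smallest adjusted p, a mean log2 CPM of at least 3, no overlap in the 4 libraries and 1 per component; every call in smaller classes; and the call with the smallest adjusted p of each role group (39 in all). Others were named after their values were seen. The members, lists and role groups were chosen with earlier results of these data known. Roles rest on the wording of descriptions. Transcripts of 1 Trinity component (144 members share one with another transcript) may split reads.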

Additional observations from a re-analysis of the deposited data

How the results depend on the processing

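RLE scaling and dropping the filter kept all 86 calls of the members, leaving out the transcripts low in replicate 1 kept them and added 10, and no named transcript changed direction under any alternative. The replicate block over 4 libraries kept 82 of the 86 calls and lost those of g13730, g5639, g2105 and g3283, and it changed no other call. DESeq2 kept 62, and leaving out each of the 4 libraries kept 74 to 78. Depth is low for transcripts such as g14548 (11 to 37 counts) and g3188 (41 to 57). Both lost their calls without 1 library, but so did g13730, with 590 to 1112 counts; the part of depth was not tested. For the changes below the cause was not tested.

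With DESeq2, 2489 of 13940 transcripts were higher and 2569 lower. Its calls were 13 higher and 6 lower for general transcripts, 3 higher for ribonucleases, 4 higher and 1 lower for 3' end processing, 13 higher for RNA-binding and 3 higher for transcription. Without mixotrophic replicate 3 or normal replicate 2, 1 transcript of 3' end processing was lower; over the 4 left-out libraries it was 1 to 2. Over all 6 libraries, 1633 of all transcripts were higher and 1874 lower, with 30 and 21 for RNA processing, 12 and 6 for general, 2 lower for splicing, 7 lower for RNA helicases, 2 higher for ribonucleases, 2 and 1 for 3' end processing, 8 higher for RNA-binding, 3 and 7 for transcription, and 15 and 5 for ribosome biogenesis. With the replicate block over 6 libraries they were 1228 and 1288 in all, 18 and 10 for RNA processing, 8 and 2 for general, 4 and 2 for splicing, 4 and 5 for RNA helicases, 2 and 1 for ribonucleases, 0 and 0 for 3' end processing (2 and 1 at an unadjusted p under 0.05, and 4 and 1 with DESeq2), 5 higher for RNA-binding, 1 and 4 for transcription, and 10 and 3 for ribosome biogenesis. Over 6 libraries without mixotrophic replicate 1, edgeR called 666 and 730 in all, 10 and 8 for RNA processing, 8 and 1 for general, 1 and 2 for splicing, 1 and 4 for RNA helicases, 0 and 1 for ribonucleases (2 and 4 at an unadjusted p under 0.05), 0 and 0 for 3' end processing (2 and 1), 4 and 3 for RNA-binding, 1 and 4 for transcription, and 6 and 2 for ribosome biogenesis. With log2 fold changes of 1 or more in size over 4 libraries they were 1449 and 1486 in all, 13 and 10 for RNA processing, 6 and 2 for general, 1 and 2 for splicing, 3 and 3 for RNA helicases, 3 and 2 for ribonucleases, 0 and 0 for 3' end processing, 7 and 2 for RNA-binding, 0 and 8 for transcription, and 8 and 7 for ribosome biogenesis. Counts summed per component gave 2365 higher and 2373 lower for all transcripts, where fewer units were tested.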
